A study of Mus musculus with 10 samples.

Results

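The genes described here are 40 chromatin regulators: 9 CHD remodellers, 11 histone deacetylases, 4 histone acetyltransferases, 4 core subunits of the polycomb complex PRC2, 4 histone methyltransferases of H3K4 and H3K36, 3 histone demethylases and 5 enzymes of DNA methylation and its oxidation. They were chosen by gene symbol, and all 40 are among the 53974 genes of the RNA-seq table. In the ATAC-seq comparison, 25 of the 16600 regions lie within 1000 bp of an end of one of these genes. The study asked how loss of *Arid1a*, a subunit of the BAF remodelling complex, alters retinal neurons after optic nerve crush (ONC). All mice were C57BL/6 *Arid1a* f/f animals of 8 to 10 weeks with a crushed optic nerve. The WT group (*Arid1a* fl/fl) received AAV2-GFP and the cKO group (*Arid1a* del/del) received AAV2-Cre in the vitreous 2 weeks before ONC, each transgene driven by the CMV promoter, which is not restricted to 1 cell type. Retinal cells were collected 3 days after ONC, sorted as live cells positive for Thy1.2, and 4 to 5 retinas were pooled per sample, which gave 3 WT and 3 cKO libraries for RNA-seq and 2 WT and 2 cKO libraries for ATAC-seq.

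Chromatin remodellers use ATP to slide, evict or space nucleosomes, whereas histone modifiers add or remove acetyl and methyl groups that other proteins read. Acetylation by CBP and p300 accompanies open promoters and enhancers, deacetylases reverse it, and PRC2 places the repressive mark H3K27me3. In neurons several of these enzymes are known to respond to injury or activity, and class IIa deacetylases move between nucleus and cytoplasm with calcium signals.

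The labels were first checked against the targeted gene and cell type markers. *Arid1a* RNA, the target of the deletion, measured 18.8, 11.7 and 14.1 TPM in the WT libraries and 18.8, 27.9 and 25.0 TPM in the cKO libraries, so it was not lower in cKO (log2 fold change 0.66, limma adjusted p = 0.274). The TPM of a whole gene does not isolate its deleted exons. TPM is a transcript abundance relative to the library's sum, scaled for transcript length and keeps no sequencing depth, so the counting error of each value is unknown. Of the 10 retinal ganglion cell markers, which define the intended cells, 2 stayed under 1 TPM in all 6 libraries, and the summed level ran from 20.6 to 54.7 TPM in WT and from 42.3 to 42.9 TPM in cKO. These markers disagreed, with 4 means higher in cKO and 6 lower. Only *Tubb3*, which was higher, did not overlap. Rod markers summed to 12910 to 17850 TPM in WT and 26120 to 49340 TPM in cKO, with all 9 genes higher in every library labelled cKO. T cells carry Thy1 and can pass the same sort, and their markers summed to 340.6 to 960.9 TPM in WT and 88.6 to 208.8 TPM in cKO, with 9 of 9 means lower and 6 of 9 genes without overlap. Myeloid markers summed to 317.3 to 679.7 TPM in WT and 225.0 to 264.9 TPM in cKO (7 of 7 means lower, 2 without overlap). That list includes *Ptprc*, which is not restricted to myeloid cells and measured 285.6, 76.6 and 239.7 TPM in WT. B cell markers were also lower (4 of 4 means, 3 without overlap). Amacrine markers summed to 222.2 to 428.7 TPM in WT and 568.1 to 1211 TPM in cKO (5 of 6 means higher, 2 without overlap). Bipolar means were higher for 6 of 6. Mueller glia markers summed to at least 7448 TPM in every library, and each overlapped between the labels. The part of these cell type differences in the results below was not tested, and fewer cells of a type cannot be told apart from less RNA per cell.

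All 40 chromatin regulators were expressed and passed the filter on low values (3 or more of the 6 libraries at 1 TPM or higher), as did 17555 genes in all. Their mean level over the 6 libraries had a median of 25.9 TPM, against 15.0 TPM for all genes tested, and 38 of 40 reached a mean of at least 10 TPM. The highest was *Hdac5*, a class IIa deacetylase, and the lowest was *Chd5*, a remodeller known from neurons, with 3.38 to 7.09 TPM over the 6 libraries. None of the 40 passed an adjusted p of 0.05 in limma, with a lowest adjusted p of 0.158, and over all genes tested 1 gene (0.00570%) did. At an unadjusted limma p under 0.05, 3 of the 40 (7.5%) were higher in cKO and 0 were lower, where 11.9% of all genes tested were higher and 6.45% were lower. All 3 cKO libraries lay above all 3 WT libraries for 9 of the 40 (22.5%, against 18.7% of all genes) and below them for 1 (against 7.18%). These shares are near or under those of all genes in the same libraries.

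**Figure D1:**
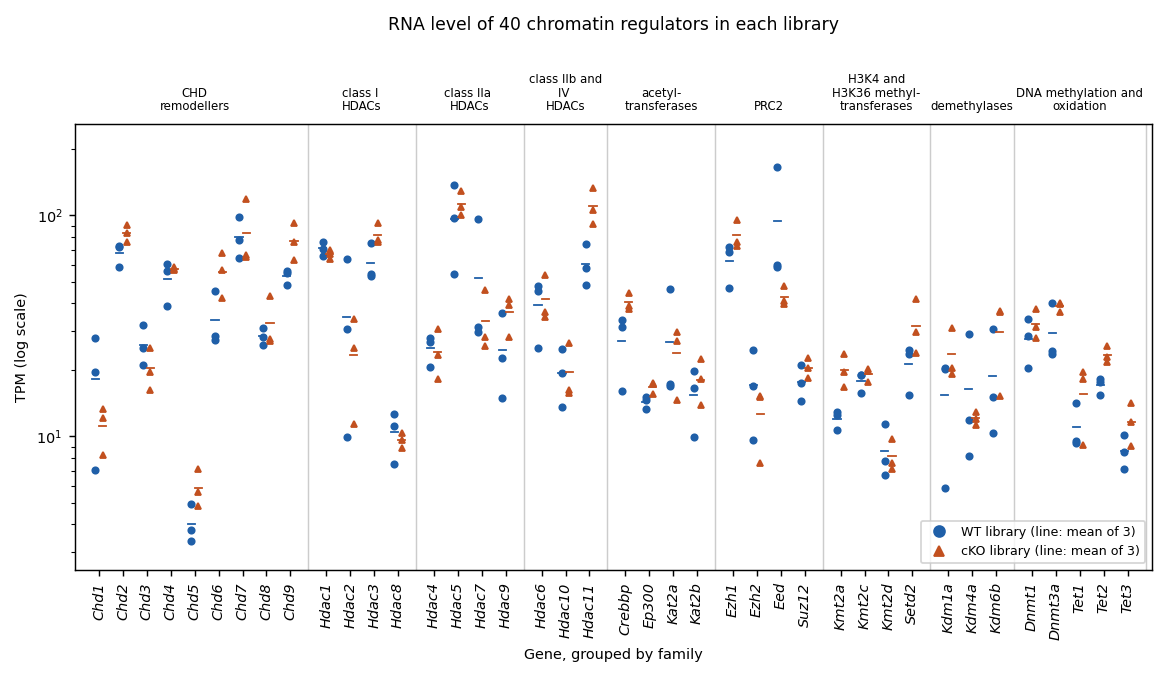
RNA level in TPM (log scale) of the 40 genes grouped by family; blue circles are the 3 WT libraries, orange triangles the 3 cKO libraries and short lines the group means. The groups overlap for 30 of 40 genes. Single WT libraries stand apart for *Eed*, *Hdac7* and *Kdm4a*, and the 3 WT libraries of *Hdac2* are spread widely.

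Scaling between libraries changed how these counts read. Over all genes tested the median log2 fold change was 0.16 on the TPM as deposited and 0.01 after scaling by the median of ratios, and that of the 40 regulators was 0.22 and 0.060. Without the first WT library these medians were 0.072 for all genes and 0.12 for the regulators. On the deposited scale 28 of the 40 had a higher and 12 a lower estimate in cKO, while 24 lay above and 16 below the median of all genes. After scaling, 1 of the 40 was higher at an unadjusted p under 0.05 (*Hdac11*; 7.57% of all genes) and 1 was lower (*Eed*; 9.54% of all genes). The scaled groups did not overlap for 2 genes higher in cKO, *Hdac11* and *Kmt2a*, where 12.5% of all genes did so, and for 2 genes lower, *Eed* and *Chd3*, where 11.2% did so. The other 7 of the 9 higher genes overlapped after scaling, and *Hdac11* was the only regulator past the unadjusted threshold on both scales.

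*Hdac11*, the only class IV deacetylase and an enzyme that also removes fatty acyl groups from lysine, gave the lowest p of the 40 genes. Its level was 48.5, 74.4 and 57.8 TPM in the WT libraries and 133, 106 and 91.9 TPM in the cKO libraries. Every cKO library lay above every WT library, with means of 60.2 ± 13.1 (SD, n = 3) and 110 ± 21.0 TPM. The log2 fold change was 0.87 (SE 0.25, limma adjusted p = 0.158), and 0.70 after scaling. Leaving out each library in turn kept it between 0.72 and 1.03 on the log2 scale. A 3 against 3 design cannot give an exact permutation p under 0.1, the value reached here.

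*Eed*, the PRC2 subunit that binds H3K27me3, was the only 1 of the 40 whose cKO libraries all lay below the WT libraries. Its WT libraries held 60.0, 165 and 58.3 TPM and its cKO libraries 41.0, 39.6 and 47.8 TPM. The second WT library was nearly 3 times the other WT libraries (highest over lowest 2.83), and the cKO libraries lay close together. The log2 fold change was -0.95 (SE 0.41, limma adjusted p = 0.282), and it did not pass the unadjusted threshold of 0.05. Without the second WT library it was -0.46 (limma adjusted p = 0.297). With replicate numbers as a block, which pairs same-numbered libraries, the gene passed the unadjusted threshold.

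Of the other PRC2 subunits, *Ezh2* also had an estimate below 0 (log2 fold change -0.37, groups overlapping), while *Suz12* and *Ezh1* had estimates above 0. *Suz12*, the scaffold subunit, ranged over 14.4 to 21.1 TPM in WT and 18.4 to 22.7 TPM in cKO. *Ezh2*, the catalytic subunit of dividing cells, measured 16.9, 24.6 and 9.62 TPM in WT and 15.1, 15.2 and 7.61 TPM in cKO. *Ezh1*, the catalytic subunit that predominates in postmitotic cells, measured 46.9, 68.7 and 71.9 TPM in WT and 76.0, 72.8 and 95.8 TPM in cKO. *Ezh1* exceeded *Ezh2* in each of the 6 libraries, and its groups did not overlap while those of *Ezh2* did. Its log2 fold change was 0.39, or 0.20 without the first WT library. The log2 ratio of *Ezh2* to *Ezh1* within a library averaged -1.88 ± 0.78 (SD, n = 3) in WT and -2.65 ± 0.73 in cKO, a difference of -0.76 that an exact two-sided permutation test did not separate (p = 0.3, adjusted p = 0.8 over 12 pairs). Within same-numbered libraries, whose pairing is not stated, the ratio was lower in cKO in 3 of 3, by -0.84, -0.75 and -0.71. An exact two-sided sign-flip permutation test of these 3 differences, added after the data were seen, gave p = 0.25, the smallest it can give (adjusted p = 0.75 over 12 pairs). Over the 4 PRC2 genes the median log2 fold change was -0.08, with 2 estimates above 0 and 2 below.

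The H3K4 and H3K36 methyltransferases had a median log2 fold change of 0.33 (0.16 after scaling), with 3 of 4 estimates above 0 and 2 of 4 above the median of all genes. *Kmt2a*, or MLL1, which methylates H3K4 at promoters, measured 12.5, 10.7 and 12.9 TPM in WT and 16.7, 23.5 and 19.5 TPM in cKO. Its WT libraries were tightly grouped and all lay below the cKO libraries (log2 fold change 0.67, SE 0.25, limma adjusted p = 0.218). *Kmt2c*, which with *Kmt2d* methylates H3K4 at enhancers, measured 19.0, 19.0 and 15.7 TPM in WT and 17.5, 20.2 and 19.9 TPM in cKO. *Kmt2d* measured 6.73, 11.4 and 7.78 TPM in WT and 7.11, 7.61 and 9.75 TPM in cKO. Both overlapped between the groups. *Setd2*, the H3K36 trimethylase, ranged over 15.4 to 24.6 TPM in WT and 23.8 to 41.7 TPM in cKO, also with overlap.

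Among the 9 CHD remodellers, 7 had estimates above 0 and 6 above the median of all genes, and the median log2 fold change was 0.17, or 0.00 after scaling. *Chd6* passed the unadjusted threshold with groups that overlapped. It measured 27.3, 45.3 and 28.5 TPM in WT and 42.3, 56.7 and 67.4 TPM in cKO (log2 fold change 0.71, SE 0.29, limma adjusted p = 0.258), so the second WT library exceeded the first cKO library. *Chd9*, of the same subfamily, measured 55.9, 48.4 and 55.1 TPM in WT and 75.8, 92.2 and 62.8 TPM in cKO. *Chd2* measured 72.5, 58.6 and 72.3 TPM in WT and 83.6, 90.6 and 75.8 TPM in cKO. The cKO libraries of *Chd9* and *Chd2* all lay above their WT libraries, and both missed the unadjusted threshold, with log2 fold changes of 0.51 and 0.30 (*Chd2* 0.20 without the second WT library).

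*Chd1*, which binds H3K4me3 at transcribed genes, measured 27.8, 19.6 and 7.04 TPM in WT and 12.1, 13.3 and 8.22 TPM in cKO. The third replicate was the lowest under both labels, as it was for *Hdac2* and *Ezh2*; 16.8% of all genes share that pattern. *Chd7*, mutated in CHARGE syndrome, measured 64.6, 98.5 and 77.7 TPM in WT and 64.8, 66.5 and 118 TPM in cKO. *Chd8*, a gene linked to autism, measured 25.9, 28.3 and 30.9 TPM in WT and 43.2, 27.5 and 27.1 TPM in cKO. Both groups of each overlapped, and 1 cKO library stood above the rest in either gene. Of the NuRD ATPases, *Chd4* measured 39.1, 56.3 and 60.1 TPM in WT and 58.4, 56.6 and 57.4 TPM in cKO, while *Chd5* measured 3.38, 3.76 and 4.95 TPM in WT and 7.09, 4.83 and 5.63 TPM in cKO. *Chd3*, the third of them, ranged over 21.0 to 31.8 TPM in WT and 16.3 to 25.2 TPM in cKO, overlapping on this scale and not after scaling.

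Of the class I deacetylases, *Hdac1*, *Hdac2* and *Hdac3* are catalytic partners of the NuRD, Sin3, CoREST and NCoR corepressors. The class had 1 estimate above 0 and 3 below (median -0.08). *Hdac3*, the NCoR partner, was the 1 above, with 53.1, 74.8 and 54.2 TPM in WT and 77.7, 92.2 and 75.8 TPM in cKO, and its groups did not overlap (log2 fold change 0.44, limma adjusted p = 0.343). *Hdac1* was among the steadiest genes of the set, with 70.8, 65.8 and 76.2 TPM in WT and 63.8, 66.9 and 69.8 TPM in cKO. *Hdac2*, its close paralog, measured 30.7, 63.7 and 9.91 TPM in WT and 25.2, 34.0 and 11.3 TPM in cKO. *Hdac2* thus varied 6.43-fold within WT, the widest spread of the 40 genes, and no difference between the labels was detectable over it. *Hdac8*, which deacetylates cohesin, ranged over 7.52 to 12.6 TPM in WT and 8.87 to 10.3 TPM in cKO.

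The class IIa deacetylases, which bind MEF2 factors, split evenly, with 2 estimates above 0 and 2 below. *Hdac5* measured 54.4, 138 and 97.3 TPM in WT and 109, 100 and 129 TPM in cKO. *Hdac4* measured 20.6, 26.7 and 27.8 TPM in WT and 18.1, 23.5 and 30.5 TPM in cKO. Neither separated the labels. *Hdac9* measured 14.9, 36.3 and 22.6 TPM in WT and 28.1, 39.4 and 41.7 TPM in cKO, and *Hdac7* measured 29.6, 96.4 and 31.1 TPM in WT and 28.2, 25.6 and 46.1 TPM in cKO. Each gene overlapped between the labels by itself, and the log2 ratio of *Hdac9* to *Hdac7* within a library did not. That ratio was -0.95, -1.38 and -0.45 in WT and -0.01, 0.60 and -0.14 in cKO, a difference of 1.08. It was the only 1 of 12 ratios between related genes whose groups did not overlap (exact two-sided permutation p = 0.1, the smallest possible here, adjusted p = 0.8 over the 12). Within same-numbered libraries 4 of the 12 ratios moved one way in all 3, those of *Hdac9* to *Hdac7*, *Ezh2* to *Ezh1*, *Chd5* to *Chd4* and *Tet3* to *Tet2*. Each of these 4 gave p = 0.25 in the exact two-sided sign-flip permutation test, the smallest it can give (adjusted p = 0.75 over the 12). The log2 ratio of *Tet3* to *Tet2* moved by only -0.039, -0.067 and -0.034. *Hdac6*, a tubulin deacetylase of class IIb, ranged over 25.1 to 47.7 TPM in WT and 34.8 to 53.6 TPM in cKO, and *Hdac10* over 13.6 to 25.0 TPM and 15.8 to 26.4 TPM.

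**Figure D2:**
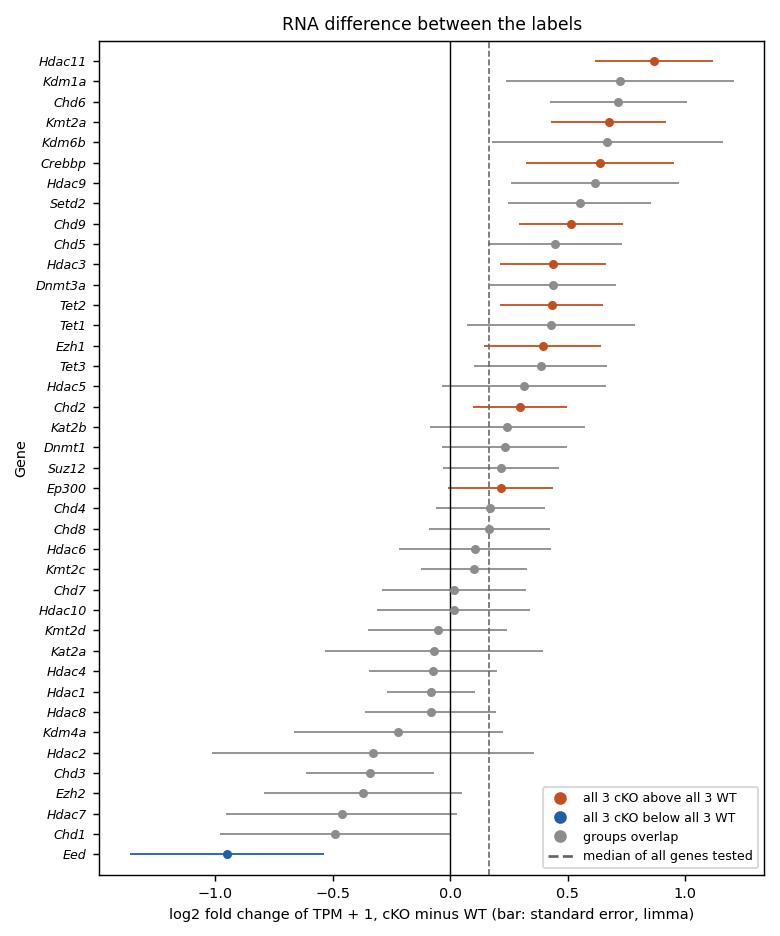
Log2 fold change of TPM + 1 (cKO minus WT) of the 40 genes from limma; bars are standard errors, orange marks the 9 genes with all cKO libraries above WT, blue the 1 below, gray the 30 that overlap, and the dashed line the median of all genes (0.16). Estimates run from -0.95 for *Eed* to 0.87 for *Hdac11*.

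The acetyltransferases had 3 of 4 estimates above 0, with a median log2 fold change of 0.23 (0.07 after scaling). *Crebbp*, encoding CBP, measured 31.3, 16.1 and 33.5 TPM in WT and 39.1, 44.7 and 37.9 TPM in cKO. *Ep300*, encoding p300, measured 15.1, 13.3 and 14.6 TPM in WT and 15.6, 17.2 and 17.4 TPM in cKO. Neither gene overlapped between the labels, with log2 fold changes of 0.64 and 0.21 (limma adjusted p = 0.329 and 0.639), and after scaling both overlapped. Without the second WT library, the lowest of *Crebbp*, its log2 fold change was 0.31. *Kat2a* measured 16.9, 46.4 and 17.2 TPM in WT and 29.8, 26.9 and 14.6 TPM in cKO, and *Kat2b* measured 9.99, 19.7 and 16.6 TPM in WT and 13.8, 22.3 and 18.2 TPM in cKO. Both, which encode the alternative acetyltransferase subunits of SAGA-type coactivators, overlapped.

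The demethylases were the most uneven group within the WT label. *Kdm1a*, the LSD1 enzyme of CoREST, ranged over 5.86 to 20.4 TPM in WT and 19.3 to 31.1 TPM in cKO. *Kdm4a*, which acts on H3K9 and H3K36, ranged over 8.14 to 29.2 TPM in WT and 11.3 to 13.0 TPM in cKO. *Kdm6b*, which removes H3K27me3, ranged over 10.4 to 30.6 TPM in WT and 15.2 to 37.1 TPM in cKO. All 3 overlapped, and each had a highest WT library at least 2.9 times the lowest. Over the 40 regulators, 12 varied at least 2-fold among the WT libraries and 4 among the cKO libraries. The second WT library was the highest of all 6 for 10 regulators, and it was the highest for 26.0% of all genes.

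All 5 genes of DNA methylation and oxidation had estimates above 0 and above the median of all genes, in a narrow band from 0.23 to 0.44 on the log2 scale (median 0.43, or 0.27 after scaling), and none passed the unadjusted threshold. *Tet2*, 1 of the oxidising enzymes, measured 17.7, 15.5 and 18.1 TPM in WT and 22.8, 21.8 and 25.6 TPM in cKO, without overlap (limma adjusted p = 0.339). *Tet3* measured 7.09, 8.54 and 10.2 TPM in WT and 9.05, 11.6 and 14.1 TPM in cKO, and *Tet1* ranged over 9.30 to 14.1 TPM in WT and 9.11 to 19.6 TPM in cKO. *Dnmt1*, the maintenance methyltransferase, measured 20.5, 28.6 and 34.2 TPM in WT and 31.4, 28.0 and 37.6 TPM in cKO. *Dnmt3a*, which methylates new sites and is abundant in neurons, measured 24.3, 40.3 and 23.6 TPM in WT and 36.6, 39.8 and 40.4 TPM in cKO. Of the 5, *Tet2* alone separated the labels.

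Other regulators of the same processes behaved much like the 40. Of 105 listed genes for ISWI and INO80 remodellers, PRC1, corepressor partners and further writers and erasers, 103 were tested, 67 had estimates above 0 and 36 below, and the median log2 fold change was 0.15 (-0.02 after scaling). None passed the adjusted threshold in limma, 10 were higher and 2 lower at an unadjusted p under 0.05 (11.9% and 6.45% of all genes), and groups did not overlap for 19 higher and 2 lower (18.7% and 7.18% of all genes). *Baz1a*, an ISWI partner subunit, had the largest difference, with 5.57, 4.37 and 8.75 TPM in WT and 1.04, 0.813 and 1.53 TPM in cKO (log2 fold change -1.74, limma adjusted p = 0.124). *Sin3b*, a corepressor scaffold, was the other gene below (-0.57), and *Kat5* (1.23), *Kdm4c* (0.90), *Kat8* (0.82) and *Cecr2* (0.78) led those above. These 103 and the 40 came from the same libraries and share their cell makeup.

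In log2 units the accessibility differences were larger than those of RNA, but the scales are unlike. TPM is relative to each library's sum, whereas the ATAC-seq values keep a fall that most regions share. Of the 40 genes, 24 (60.0%) had a region of the ATAC-seq comparison at an end, against 51.5% of the genes tested by RNA-seq that have a position, and *Chd8* had 2. An end of another gene also lies at 8 of these regions. The values are the authors' mean normalized reads per group, 1 per label, and the authors' p-values were not used, so no test or replicate error is given here. A region was called when it differed by at least 1 on the log2 scale. Of the 25 regions, 24 (96.0%) were lower in cKO and 0 were higher, where 89.0% of the 8002 regions at ends of any gene and 59.8% of all 16600 regions were lower. The closer background is the 6966 regions at ends of genes tested by RNA-seq. Of these, 6487 were lower by at least 1 and 5003 by at least 2, with a median difference of -2.58. All 25 had a peak in both WT libraries and 4 had one in either cKO library, so the choice of regions favoured a lower value in cKO. The 25 regions held 8.94 to 123 reads in WT (median 39.1) and 0.595 to 27.9 reads in cKO (median 5.78). Their median difference was -3.12 on the log2 scale (quartiles -3.43 and -2.36), against -2.50 (quartiles -3.22 and -1.75) for regions at ends of any gene. A difference of at least 2 was found in 21 of the 25 (84.0%) and in 67.6% of regions at gene ends. The regulators thus shared a loss that most gene ends showed, and reads summed over all 16600 regions were 461300 in WT and 121700 in cKO. With differences centred on the median of all regions, 17 of the 25 were lower by at least 1 (median -1.55), against 47.3% of regions at gene ends and 27.4% of all regions.

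**Figure D3:**
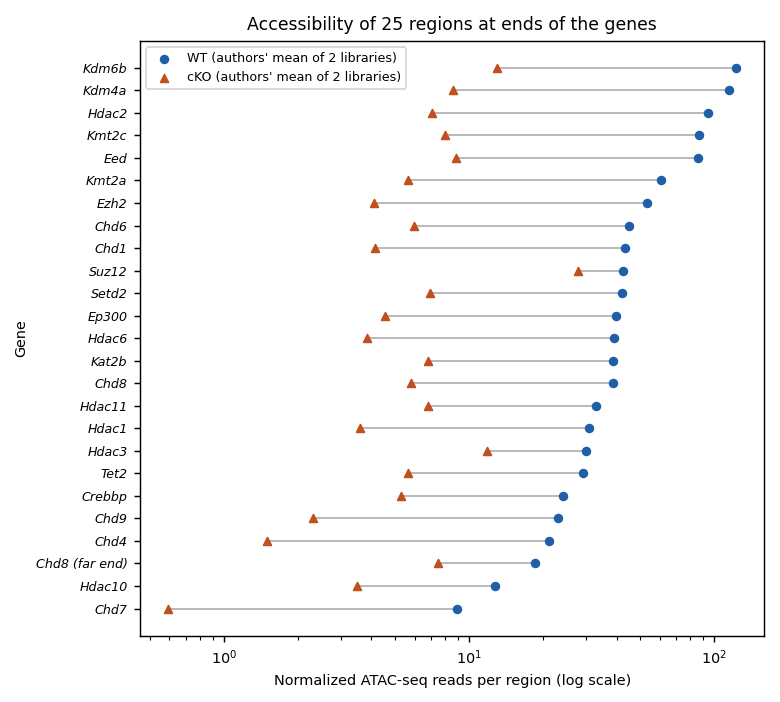
Normalized ATAC-seq reads (log scale) of the 25 regions at ends of 24 of the genes; blue circles are the authors' WT mean, orange triangles their cKO mean, and lines join the 2 values. All 25 lie lower in cKO, *Suz12* by the least.

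The promoters shown next carry the extremes of the data: *Kdm4a* and *Hdac2* lie in the most accessible WT regions at gene ends for which RefSeq gave a promoter, *Hdac4* starts inside its gene model in the most accessible region of all, *Hdac11* and *Eed* had the largest RNA differences in either direction, and *Suz12*, chosen after its values were seen, kept the most accessibility. Each is the RefSeq promoter on GRCm38.p6, from 250 bases before to 50 after the start, written in the direction of transcription, with GGGCGG (an SP and KLF factor motif) and CCAAT (an NFY motif), or their reverse complements CCGCCC and ATTGG, in capitals.
Kdm4a: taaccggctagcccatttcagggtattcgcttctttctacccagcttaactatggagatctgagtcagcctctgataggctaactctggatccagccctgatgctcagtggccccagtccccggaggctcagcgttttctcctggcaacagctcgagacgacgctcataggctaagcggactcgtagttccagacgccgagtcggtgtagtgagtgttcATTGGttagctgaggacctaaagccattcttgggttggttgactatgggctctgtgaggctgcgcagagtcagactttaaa
Hdac2: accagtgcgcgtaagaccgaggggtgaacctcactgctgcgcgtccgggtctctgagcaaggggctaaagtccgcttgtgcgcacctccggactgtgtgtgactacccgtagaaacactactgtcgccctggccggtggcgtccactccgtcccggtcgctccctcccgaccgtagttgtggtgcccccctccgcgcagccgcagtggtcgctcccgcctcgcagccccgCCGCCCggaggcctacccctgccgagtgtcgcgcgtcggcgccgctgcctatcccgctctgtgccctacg
Hdac4: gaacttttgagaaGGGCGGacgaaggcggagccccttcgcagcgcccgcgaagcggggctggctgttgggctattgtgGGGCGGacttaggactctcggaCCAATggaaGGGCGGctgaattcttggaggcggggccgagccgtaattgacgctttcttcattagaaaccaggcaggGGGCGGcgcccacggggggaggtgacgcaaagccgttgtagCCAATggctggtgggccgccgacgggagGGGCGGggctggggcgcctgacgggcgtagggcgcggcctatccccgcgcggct
Hdac11: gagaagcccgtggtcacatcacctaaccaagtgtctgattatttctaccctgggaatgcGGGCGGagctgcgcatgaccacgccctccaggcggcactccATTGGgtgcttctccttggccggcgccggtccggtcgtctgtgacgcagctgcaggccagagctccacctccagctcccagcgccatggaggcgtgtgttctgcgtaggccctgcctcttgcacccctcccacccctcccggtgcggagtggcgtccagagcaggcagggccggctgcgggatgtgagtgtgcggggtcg
Eed: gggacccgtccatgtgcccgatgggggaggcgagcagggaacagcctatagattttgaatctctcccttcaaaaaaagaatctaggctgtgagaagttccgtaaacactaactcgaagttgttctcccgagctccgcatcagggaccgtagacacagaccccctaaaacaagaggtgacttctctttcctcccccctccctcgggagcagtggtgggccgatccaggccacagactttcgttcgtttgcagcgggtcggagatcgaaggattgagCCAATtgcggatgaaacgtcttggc
Suz12: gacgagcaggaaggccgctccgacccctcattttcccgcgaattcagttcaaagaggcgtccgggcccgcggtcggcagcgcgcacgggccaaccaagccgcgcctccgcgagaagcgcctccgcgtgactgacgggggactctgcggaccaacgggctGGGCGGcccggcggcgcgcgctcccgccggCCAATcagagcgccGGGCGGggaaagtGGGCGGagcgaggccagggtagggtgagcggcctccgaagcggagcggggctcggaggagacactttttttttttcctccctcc
They lie at chr4:118179994-118180293 (minus strand), chr10:36974294-36974593 (plus), chr1:92180292-92180591 (minus), chr6:91156565-91156864 (plus), chr7:89980927-89981226 (minus) and chr11:79992856-79993155 (plus), in that order, each within its ATAC-seq region. GC content was 53.3% for *Kdm4a*, 69.7% for *Hdac2*, 68.0% for *Hdac4*, 66.7% for *Hdac11*, 54.7% for *Eed* and 71.0% for *Suz12*. The *Hdac4* promoter held 5 GGGCGG and 2 CCAAT matches, *Suz12* held 3 and 1, *Hdac11* held 1 of each, *Hdac2* held 1 GGGCGG, and *Kdm4a* and *Eed* held 1 CCAAT each.

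Promoters were found for 32 of the 40 genes, and *Chd1*, *Chd2*, *Chd3*, *Chd7*, *Hdac1*, *Hdac3*, *Hdac10* and *Kdm6b* had none in the table. On either strand, GGGCGG was present for 23 of the 32 genes (71.9%, against 65.3% of 11687 tested genes) and CCAAT for 16 (50.0%, against 42.9%). CCGGAAG, an ETS factor motif, was present for 1 of the 32 (3.12%, against 18.4%), and GCATGCGC, an NRF1 motif, for 1 (3.12%, against 5.64%). No motif contains another, and a match describes the sequence alone. Their 44 promoters had a median GC content of 65.0%, against 60.0% for promoters of tested genes.

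Of the 25 regions at gene ends, the strongest in WT lay at *Kdm6b* (chr11:69417596-69419394), with 123 reads in WT and 13.0 in cKO, followed by *Kdm4a* (chr4:118179585-118180411), with 115 and 8.63 reads. *Hdac2* (chr10:36974101-36975291) held 94.4 and 7.06 reads, *Kmt2c* (chr5:25499084-25500226) 86.8 and 8.00, and *Eed* (chr7:89980233-89981309) 86.2 and 8.88. Each of these 5 was lower by over 3 on the log2 scale in cKO. The largest differences among the 25 were at weaker regions, *Chd7* (-3.91, from 8.94 to 0.595 reads) and *Chd4* (-3.83, from 21.3 to 1.50 reads). *Kmt2a* (60.6 to 5.62 reads), *Ezh2* (53.5 to 4.08), *Chd6* (44.9 to 5.98) and *Chd1* (43.4 to 4.14) differed by between -3.71 and -2.91. *Ep300* (39.7 to 4.56 reads), *Hdac6* (39.1 to 3.84), *Hdac1* (30.9 to 3.58) and *Chd9* (23.1 to 2.31) differed by between -3.35 and -3.11. *Setd2*, *Kat2b*, *Hdac11*, *Tet2*, *Crebbp*, *Hdac10* and the start of *Chd8* had smaller differences, between -2.74 and -1.87.

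*Suz12* differed the least of the 25 regions. Its region (chr11:79992572-79993718) held 42.5 reads in WT and 27.9 in cKO, a difference of -0.61, the only 1 of the 25 not called. Of regions at gene ends, 8.1% had a difference at or above this value and 0.2% held as many reads in cKO. The region was picked as the extreme of 25, so these shares do not show it to be unusual. A peak was also listed there in the first cKO library and not in the second. *Hdac3* (-1.34, 30.1 to 11.9 reads) and the far end of *Chd8* (-1.32, a region it shares with *Supt16*) were the next smallest. These 3 regions, with the start of *Chd8*, were the 4 of 25 with a peak in either cKO library, while all 25 had a peak in both WT libraries.

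**Figure D4:**
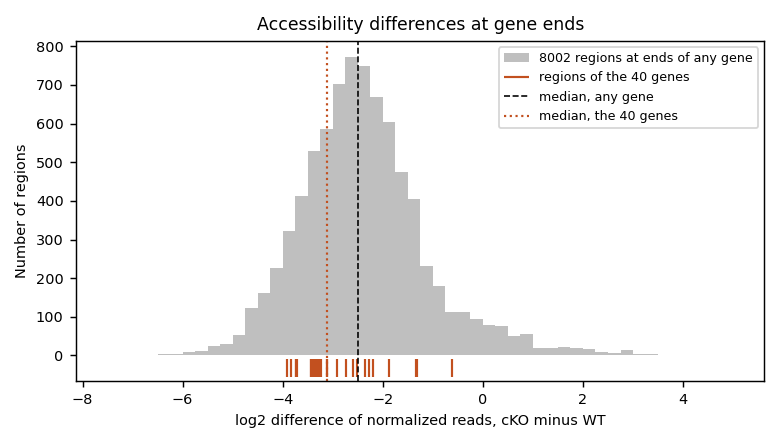
Histogram of the log2 difference of normalized reads (cKO minus WT) over the 8002 regions at ends of any gene, with an orange tick for each of the 25 regions of the chromatin regulators; lines mark the medians, -2.50 for any gene and -3.12 for the regulators. The ticks fall from -3.91 to -0.61, inside the range of the histogram.

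The peak lists, called separately in each library, hold the start of each of the 16600 regions, so they are no separate support. A peak at an end was listed for 30 of the 40 genes (75.0%) in the first and 24 (60.0%) in the second WT library, against 65.1% and 58.2% of all genes tested. In the cKO libraries 5 (12.5%) and 2 (5.00%) had a peak, against 13.6% and 13.9%. The lists held 76522 and 42265 peaks in WT and 55902 and 68317 in cKO. A peak in both WT libraries and in neither cKO library was found for 19 of the 40 genes, against 37.5% of all genes tested, and in both cKO libraries for 1, against 2.27%. For 10 genes neither WT library had a peak at an end, against 28.3%.

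Of the 16 genes with no region at an end, 5 had a region at a start that RefSeq lists inside the gene: *Hdac4*, *Kmt2d*, *Dnmt1*, *Tet3* and *Hdac9*. *Hdac4* (chr1:92180223-92180987) held 176 reads in WT and 6.10 in cKO, a difference of -4.85 and the highest WT value of any region here. *Kmt2d* differed by -4.12, *Dnmt1* by -3.53, *Tet3* by -2.12 and *Hdac9* by -0.72. The remaining 11 genes, *Chd2*, *Chd3*, *Chd5*, *Hdac5*, *Hdac7*, *Hdac8*, *Kat2a*, *Ezh1*, *Kdm1a*, *Dnmt3a* and *Tet1*, had neither. Where a start was listed for a gene with a region, 14 of 19 regions covered it.

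RNA and accessibility are set side by side for the 24 genes with a region, from different libraries of the same labels. Every one of the 24 had lower accessibility in cKO, at regions that all had a peak in both WT libraries. On the deposited TPM scale 18 had RNA estimates above 0 and 6 below (median 0.19). After scaling, 12 were above 0, 10 below and 2 at 0.00 when rounded (median 0.026), so the balance of RNA directions depended on the scale. Of the 16 without a region, 10 were above and 6 below on either scale (median 0.30, or 0.14 after scaling). *Kdm4a* and *Hdac2*, with among the largest losses of reads, had log2 RNA fold changes of -0.22 and -0.33, within their spread. *Hdac11* had the highest RNA estimate beside a region lower by 2.27, and *Kmt2a* had higher RNA in every cKO library beside a region lower by 3.43. *Eed* was lower in both readouts (-0.95 in RNA, -3.28 in accessibility), and *Suz12*, another PRC2 subunit, had an RNA estimate of 0.21 and the smallest loss. Across the 24 genes Pearson's r of the RNA and accessibility differences was 0.364, a description over genes that share their libraries and base composition. RNA differences of all 24 lay between -0.95 and 0.87 on the log2 scale, while those of accessibility at their ends lay between -3.91 and -0.61. The scales are unlike, so the widths of these ranges cannot be compared directly.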

How the data were processed

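Gene-level TPM values of 6 RNA-seq libraries were made by the authors with Salmon 1.0.0, tximport and the GENCODE annotation and deposited with no further scaling. ATAC-seq reads were aligned by the authors to GRCm38 with Bowtie 2 2.3.5.1, peaks were listed per library (MACS2 2.2.5 is named in the submitters' processing notes), and the deposited comparison gives the log2 mean normalized reads of each group, made with DiffBind. Peak coordinates give positions alone; printed positions count from 1. Sequencing depth is unknown for both assays. The authors' DESeq2 table and their fold changes, p-values and FDRs were not used.

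The 40 genes and all lists were chosen with earlier results of these data known. Log2(TPM + 1) was fitted by limma 3.58.1 (R 4.3.3; trend, group alone) over the 17555 genes that reached 1 TPM in 3 or more of the 6 libraries, with Benjamini-Hochberg adjustment over all genes at 0.05. This scale understates fold changes of low genes. Exact two-sided permutation tests of 3 against 3 libraries cannot go below 0.1. No source states that replicates were separate experiments, so p-values measure the spread between these samples. Deviations from the group mean correlated across genes at r = 0.334, 0.101 and 0.425 for same-numbered libraries. For libraries of different number r ran from -0.386 to 0.193. Whether the numbers pair the samples is not stated, so the fit with this block was an alternative. Others were no filter, a mean TPM of 5, a pseudocount of 0.1, scaling by the median of ratios, no trend, and each library left out. For ATAC-seq, a region or peak within 1000 bp of either end of a gene in the RefSeq table (GRCm38.p6) was counted, and the difference of group values was computed as cKO minus WT. Per-library values are given for genes whose groups did not overlap, those with an unadjusted p under 0.05 and those in the 12 pairs, and for the other regulators up to 4 rises and 4 falls without overlap. Scripts were tested on simulated data. Figures were drawn with matplotlib 3.10.9.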

Additional observations from a re-analysis of the deposited data

How the results depend on the processing

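Depth is unknown for both assays, so counting error could not be separated from the spread of the libraries. No adjusted call was made among the 40 genes under any alternative. Scaling by the median of ratios gave 1 gene higher and 1 lower at an unadjusted p under 0.05, 2 higher and 2 lower without overlap, and a median log2 fold change of 0.060. It turned the estimates of *Chd7* (-0.15), *Chd8* (0.00), *Hdac6* (-0.060), *Hdac10* (-0.15) and *Kmt2c* (-0.062). The replicate block gave 1 gene lower, *Eed*, at a limma p of 0.04995, and changed no other call on the genes. For the pair ratios the sign-flip test cannot go below 0.25, so it could make no call.

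Leaving out 1 library gave 1 to 5 genes higher at an unadjusted p under 0.05 (5 without the second WT library, 1 without the third WT or the second cKO library). It gave 0 to 2 lower. Of all genes, 5.89% to 13.5% were higher and 3.97% to 7.90% lower in these fits. Groups did not overlap for 11 to 14 genes higher (14 without the first cKO library) and 1 to 3 lower. Of all genes, 21.0% to 29.4% and 8.55% to 14.3% did so with 1 library fewer (18.7% and 7.18% with all 6). Without overlap were 1 to 4 pair ratios. The median log2 fold change then ran from 0.12 (without the first WT library) to 0.29, and that of all genes from 0.072 to 0.24. It turned the direction of 14 estimates, whose lowest and highest values were -0.018 and 0.29 for *Chd4*, -0.26 and 0.17 for *Chd7*, -0.049 and 0.28 for *Chd8*, -1.01 and 0.27 for *Hdac2*, -0.28 and 0.055 for *Hdac8*, -0.26 and 0.10 for *Hdac4*, -0.047 and 0.61 for *Hdac5*, -0.75 and 0.082 for *Hdac7*, -0.18 and 0.27 for *Hdac6*, -0.21 and 0.21 for *Hdac10*, -0.31 and 0.39 for *Kat2a*, -0.023 and 0.43 for *Kat2b*, -0.20 and 0.14 for *Kmt2d*, and -0.59 and 0.27 for *Kdm4a*. In all, 25 of the 40 genes kept their direction under each alternative run. The cause of these changes was not tested. No paired analysis was possible because ATAC-seq groups are single values; RNA-seq was paired as above.

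Centring on the median of all regions gave a median difference of -1.55 for the 25 regions and left 17 lower by at least 1. A window of 3000 bp gave 9 genes with a peak in the first cKO library and 11 in the second, and peak centres gave 3 in the first. The share of all genes was not computed at these settings, so the counts cannot be set against it.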
